A study of Mus musculus with 6 samples.

Results

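Nuclear genes that encode subunits of the mitochondrial respiratory chain and ATP synthase were compared between wild-type and Dicer-deleted sensory neurons. Members were chosen by gene name alone: names of the Nduf, Sdh, Uqcr, Cox4 to Cox8 and Atp5 series, with Cycs and Cyc1. Of 31032 distinct names in the deposited table, 86 matched, each with 1 row. They comprised 35 genes of complex I, 4 of complex II, 9 of complex III, 20 of complex IV, 15 of complex V and cytochrome c (Cycs). The other 2, Atp5s and Atp5sl, match by name but are not subunits of the assembled enzyme, so they are given apart. Ndufa4 was counted with complex IV, where its protein is found, and its paralogue Ndufa4l2 with it.

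The 6 RNA sequencing libraries came from parvalbumin-positive neurons of the lumbar 4 dorsal root ganglion of C57BL/6 mice at postnatal day 21. Parvalbumin marks mainly proprioceptors, the large sensory neurons that report muscle stretch and tension. In 3 libraries the genotype was wild type, and in 3 Dicer, the ribonuclease that makes mature microRNAs, had been ablated with a parvalbumin-Cre driver, which acts only once a cell switches the parvalbumin gene on. The labels name no Cre or conditional allele for the wild-type group. They also do not state whether libraries came from separate animals, so p-values measure the spread between these libraries, which may be in part technical.

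The respiratory chain sits in the inner mitochondrial membrane. Complexes I and II pass electrons from NADH and succinate to ubiquinone, complex III passes them to cytochrome c, and complex IV passes them to oxygen. Complexes I, III and IV pump protons, and complex V, ATP synthase, uses the proton gradient to make ATP. Complex II is encoded wholly in the nucleus, while the other complexes also hold subunits encoded in mitochondrial DNA, which were not analysed here. Proprioceptors fire at high rates, and parvalbumin neurons elsewhere in the nervous system are known for a high content of mitochondria.

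Values are TPM, transcript abundances corrected for length and scaled to the same total in every library, which keep no sequencing depth. Between 13237 and 13960 rows reached 1 TPM per library. Dicer1 was at 36.7, 25.99 and 48.7 TPM in wild type and at 24.0, 20.8 and 21.8 TPM in knockout libraries, with a narrow gap between the groups; a whole-gene value does not isolate the deleted exon. Replicate 3 of each group had Xist at 0.06 TPM or less and the other 4 libraries had it at 22.2 TPM or more, so replicate 3 differed in sex and came from another animal than replicates 1 and 2. The fit had genotype as its only term, so any difference of sex stays in the spread between libraries. All 5 proprioceptor markers were detected in every library. They summed to 1270 to 1411 TPM in wild type and to 563 to 766 TPM in knockout, and 4 of 5 (Pvalb, Runx3, Etv1 and Spp1) were called lower. Over all tested rows 3.17% were called lower and 1.86% higher. Satellite glia, which wrap these neurons, left transcripts too. Of their 8 markers, 2 (Fabp7 and Gja1) were called lower, Glul was higher without overlap (149 ± 48.4 and 226.5 ± 16.8 TPM, SD, n = 3 each; adjusted p = 0.105), and the list summed to 804 to 1763 TPM in wild type and to 424 to 929 TPM in knockout. Of 5 nociceptor markers 3 were tested. Tac1 was called lower, Scn10a was higher without overlap (7.38, 7.44 and 0 TPM in wild type, 13.4, 17.1 and 14.1 TPM in knockout, adjusted p = 0.144) and Calca overlapped (difference 0.10), and the list summed to 81.6 to 283 TPM in wild type and 128 to 188 TPM in knockout. Sums in wild type and knockout were 12.5 to 23.9 and 8.94 to 18.7 TPM for myelinating Schwann cells, 6.02 to 8.76 and 3.45 to 5.33 TPM for macrophages, 12.3 to 17.7 and 16.2 to 23.8 TPM for endothelium, and 3.99 to 20.2 and 12.5 to 54.8 TPM for erythroid cells, with no call. Bulk values cannot tell fewer cells of a type from less RNA per cell, and the part of these marker shifts in the results below was not tested.

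Respiratory chain transcripts were abundant in both groups. The 86 genes held 5.65%, 5.19% and 4.62% of all transcripts in the wild-type libraries. They held 4.82%, 5.31% and 5.09% in the knockout libraries, within the wild-type range. The summed level was 51540 ± 5155 TPM in wild type and 50730 ± 2418 TPM in knockout (SD, n = 3 each). The highest means over the 6 libraries were those of Atp5b, the catalytic beta subunit of ATP synthase (3446 TPM), Cox7c, a small subunit of complex IV (2527 TPM), and Atp5g1, which encodes the proton-carrying c subunit (2474 TPM). Complex I genes were lower and closer together, from 114 TPM for Ndufv1, which encodes the subunit that binds NADH and flavin, to 619 TPM for Ndufc1, a small membrane-arm subunit. All but 9 of the 86 had means of at least 50 TPM. Those 9 were Atp5sl and 8 tissue-restricted paralogues of complex IV described below.

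Knockout libraries had lower levels of 8 subunit genes and no call of a higher level. Of 82 genes tested (a mean of at least 1 TPM), 8 fell, of which 6 belong to complex I, 1 to complex II and 1 is Cycs. The 7 described here are Ndufa9, Ndufb5, Ndufb9, Ndufs1 and Ndufa8 of complex I, Sdhd of complex II, and Cycs. Genes called lower made up 3.17% of all 13787 rows tested, and genes called higher 1.86%. None of the 82 was called higher by limma at an adjusted p of 0.05, and 8 were higher at an unadjusted p below 0.05, against 23 lower. Groups did not overlap for 27 members with lower and 4 with higher knockout values; over all tested rows the shares were 17.1% and 11.8%. The members' median difference was -0.13 (knockout minus wild type on the log2(TPM + 1) scale), against -0.05 over all tested rows, and 64.6% of members lay below 0, against 55.0% of all rows. The gap between the medians rested on single libraries: without knockout replicate 1 the medians were -0.0699 for members and -0.0696 for all rows, and without wild-type replicate 1 they were -0.0789 and -0.075.

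Complex I contributed the deepest falls, in both its catalytic core and its accessory shell. Ndufa9, an accessory subunit at the junction of the membrane arm and the arm that projects into the matrix, was at 297, 491 and 382 TPM in wild type. It was at 163, 175 and 254 TPM in the knockout libraries. Every knockout value lay below every wild-type value, with the closest pair being knockout replicate 3 and wild-type replicate 1. The difference was -0.98 (SE 0.21, limma adjusted p = 0.0357; chromosome 6, 126821721 to 126849136, GRCm38).

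Ndufs1, the largest core subunit, which carries iron-sulphur clusters, had 148, 186 and 182 TPM in wild type and 123, 96.3 and 122 TPM in knockout. Its groups did not overlap, but its call was marginal (difference -0.59, SE 0.14, adjusted p = 0.0489; chromosome 1, 63143596 to 63176833).

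The other complex I falls were in accessory subunits. Ndufb5, in the membrane arm, had the smallest p among the members. It was at 328, 423 and 333 TPM in wild type and at 178, 189 and 220 TPM in knockout, with groups far apart (difference -0.88, SE 0.14, adjusted p = 0.011; chromosome 3, 32736990 to 32751566). Ndufb9, also in the membrane arm, was at 354, 441 and 471 TPM in wild type and at 266, 224 and 294 TPM in knockout. These values did not overlap (difference -0.69, SE 0.14, adjusted p = 0.0316; chromosome 15, 58933756 to 58939488). Ndufa8, on the intermembrane-space face, was at 248, 250 and 230 TPM in wild type and at 161, 155 and 192 TPM in knockout. It had the tightest wild-type group of the 6 complex I falls (SD 11.4 TPM; difference -0.52, SE 0.12, adjusted p = 0.0378; chromosome 2, 36036326 to 36049406).

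Sdhd, which anchors complex II in the membrane and helps bind ubiquinone, was at 381, 467 and 367 TPM in wild type and at 241, 222 and 268 TPM in knockout. The knockout libraries were close together and all below wild type (difference -0.72, SE 0.13, adjusted p = 0.0169; chromosome 9, 50596357 to 50603812). Cycs, which encodes the mobile carrier cytochrome c that also triggers apoptosis when released, was at 332, 370 and 334 TPM in wild type and at 213, 220 and 261 TPM in knockout. Its groups did not overlap (difference -0.58, SE 0.12, adjusted p = 0.0266; chromosome 6, 50562563 to 50566538).

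**Figure D1:**
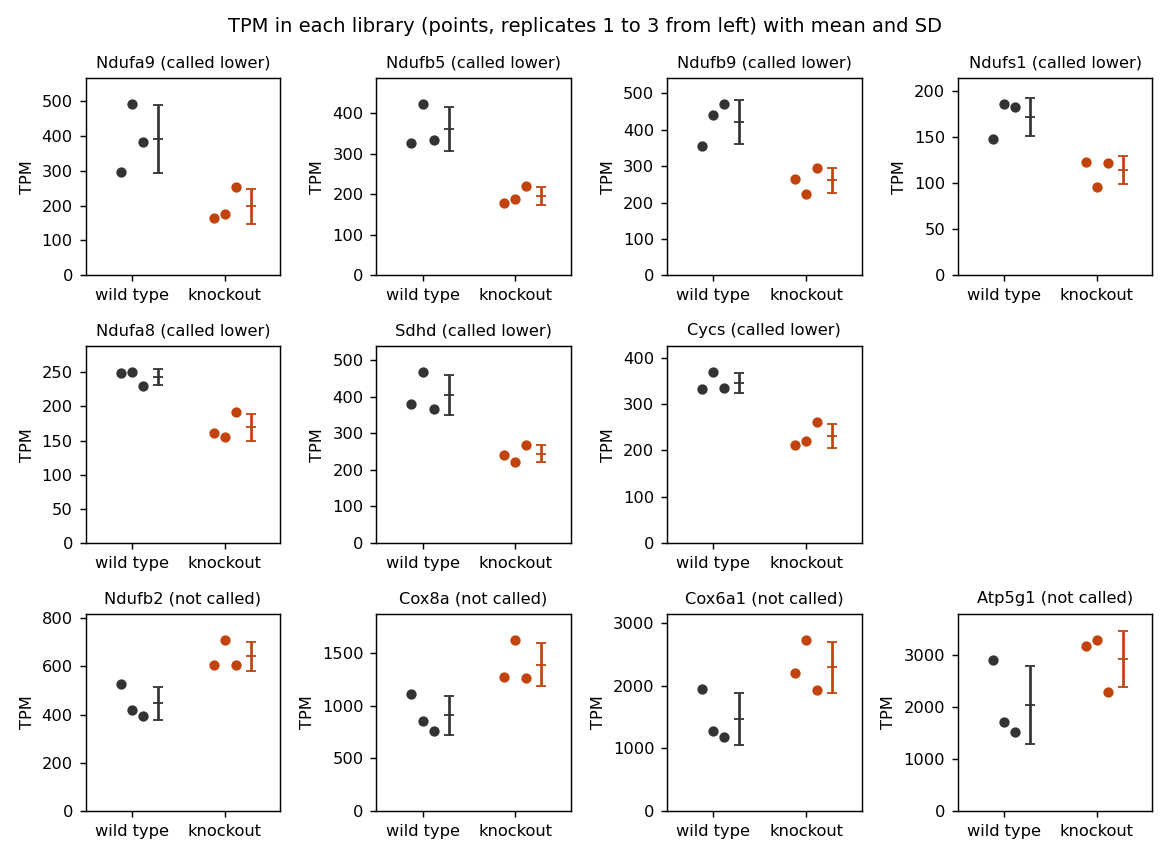
TPM of 11 genes in each library (points, replicates 1 to 3 from left to right in each group) with the group mean and SD beside them; each vertical axis starts at 0. The 7 panels marked as called lower hold groups that do not overlap, and the other 4 are genes with higher knockout means that were not called, where wild-type replicate 1 lies nearest to the knockout libraries.

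All 8 differences stayed below 0 under each of 17 alternatives. Their groups did not overlap, so only another scaling of the libraries could have changed that direction. The calls rested on few libraries. With limma and without wild-type replicate 3, knockout replicate 1 or knockout replicate 2, 0 members were called lower (24, 21 and 18 at an unadjusted p below 0.05). Without wild-type replicate 2 only Ndufb5 was called. The share of all rows called lower also dropped in these 4 fits, to 0.696%, 0.66%, 1.07% and 1.11%. With replicate 3 of both groups left out, 0 members were called (20 lower and 3 higher at an unadjusted p below 0.05), and 0.101% of all rows.

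Promoters of fallen genes are shown because nuclear genes of the chain are known to share a small set of regulators. Nuclear respiratory factor 1 (Nrf1) and the estrogen-related receptors (ERR) bind many respiratory chain promoters. The RefSeq table (GRCm38.p6) gave promoters, 250 bases before to 50 after a start site, for 68 of the 86 genes and for 5 of the 8 that fell. The promoter of Ndufa9, which fell and held no Nrf1 word, is not printed. Each line below gives the 250 bases before the start, 5′ to 3′. Capitals mark a match to the Nrf1 word GCGCANGCG on either strand and, in Cycs, also to the cyclic AMP response element TGACGTCA.

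The promoters are of Sdhd (chr9:50603850-50604099, minus strand), Cycs (chr6:50566570-50566819, minus strand), Ndufa8 (chr2:36049339-36049588, minus strand), Ndufb5 (chr3:32736813-32737062, plus strand) and, for contrast, Cox6a1 (chr5:115348959-115349208, minus strand), whose knockout mean was higher.
Sdhd: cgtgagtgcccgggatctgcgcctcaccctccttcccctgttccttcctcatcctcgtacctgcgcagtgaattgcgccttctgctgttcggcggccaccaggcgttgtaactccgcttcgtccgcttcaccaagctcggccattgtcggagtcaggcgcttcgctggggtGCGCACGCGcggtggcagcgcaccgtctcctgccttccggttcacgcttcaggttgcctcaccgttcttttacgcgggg
Cycs: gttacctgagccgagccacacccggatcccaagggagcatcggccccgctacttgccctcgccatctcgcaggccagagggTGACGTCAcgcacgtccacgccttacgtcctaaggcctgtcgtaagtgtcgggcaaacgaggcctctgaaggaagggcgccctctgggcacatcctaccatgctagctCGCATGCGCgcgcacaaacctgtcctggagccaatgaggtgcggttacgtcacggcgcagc
Ndufa8: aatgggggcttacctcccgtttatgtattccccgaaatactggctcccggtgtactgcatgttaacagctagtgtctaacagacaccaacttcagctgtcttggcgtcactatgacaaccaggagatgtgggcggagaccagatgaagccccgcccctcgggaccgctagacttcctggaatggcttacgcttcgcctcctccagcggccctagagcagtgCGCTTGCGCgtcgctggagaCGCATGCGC
Ndufb5: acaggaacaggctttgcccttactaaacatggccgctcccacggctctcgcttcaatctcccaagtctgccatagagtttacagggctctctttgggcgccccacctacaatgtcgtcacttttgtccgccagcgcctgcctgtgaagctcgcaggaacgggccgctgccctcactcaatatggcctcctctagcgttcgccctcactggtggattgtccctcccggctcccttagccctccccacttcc
Cox6a1: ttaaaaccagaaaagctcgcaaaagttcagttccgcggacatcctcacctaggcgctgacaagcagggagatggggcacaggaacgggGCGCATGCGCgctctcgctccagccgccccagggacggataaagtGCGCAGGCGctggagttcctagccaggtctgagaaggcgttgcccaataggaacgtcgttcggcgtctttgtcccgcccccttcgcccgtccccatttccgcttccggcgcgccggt

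The Nrf1 word began 79 bases before the start site in Sdhd, 61 bases before it in Cycs, and 29 and 9 bases before it in Ndufa8. Cox6a1 held 3 matches, of which the 2 farther ones overlap on opposite strands. Ndufb5 held none of the 5 words searched, in this window. Over the whole 300-base windows, 21 of 68 member genes held the Nrf1 word (30.9%), against 7.03% of all 27025 genes with a promoter in the table. The 21 included 3 of the 5 fallen genes. Their median difference was -0.18, against -0.11 for the 46 tested genes without the word.

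Other words were rarer. AAGATGGCG, bound by YY1, was in 8 of 68 member promoters (11.8%, against 1.64% of all genes). Ndufa9 was the only fallen gene among these, with the word after the start site. The ERR word TCAAGGTCA was in 2 members (2.94%, against 0.466%), Atp5g3 and Sdhd, and in Sdhd it began 37 bases after the start on the opposite strand. TGACGTCA was in 5 members (7.35%, against 2.03%), and CCGGAAGT, bound by the ETS factor GABP, in 5 (7.35%, against 4.31%). A match is only a match of letters and was not tested as a binding site.

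The 5 complexes differed in how their genes lay. Complex II genes were all below 0, with a median difference of -0.45 over 4 genes. Complex I had a median of -0.14 (26 of 35 below 0), complex V of -0.08 (9 of 15 below 0) and complex III of -0.004 (5 of 9 below 0). Complex IV had a median of 0.29 over its 16 tested genes, but this included 4 paralogues at a few TPM. Over its 12 genes with a mean of at least 50 TPM the median was -0.02, with 6 below and 6 above 0. Single libraries moved these medians: complex I ran from -0.07 without knockout replicate 1 to -0.24 without wild-type replicate 3, complex III from -0.0656 without wild-type replicate 3 to 0.0735 without wild-type replicate 1, complex IV (16 genes) from 0.11 without knockout replicate 2 to 0.50 without wild-type replicate 1, and complex V from -0.16 without wild-type replicate 3 to -0.02 without wild-type replicate 1. Complex II ran from -0.55 to -0.36. Calls were made in complex I (6 lower), complex II (1 lower) and for Cycs. In complexes III, IV and V limma called 0. Over all tested rows 3.17% were called lower and 1.86% higher. At those shares lists of 9, 16 and 15 genes would hold few or no calls, so the 0 does not set them apart. At an unadjusted p below 0.05 complexes III, IV and V had 1, 4 and 3 lower and 1, 3 and 1 higher.

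**Figure D2:**
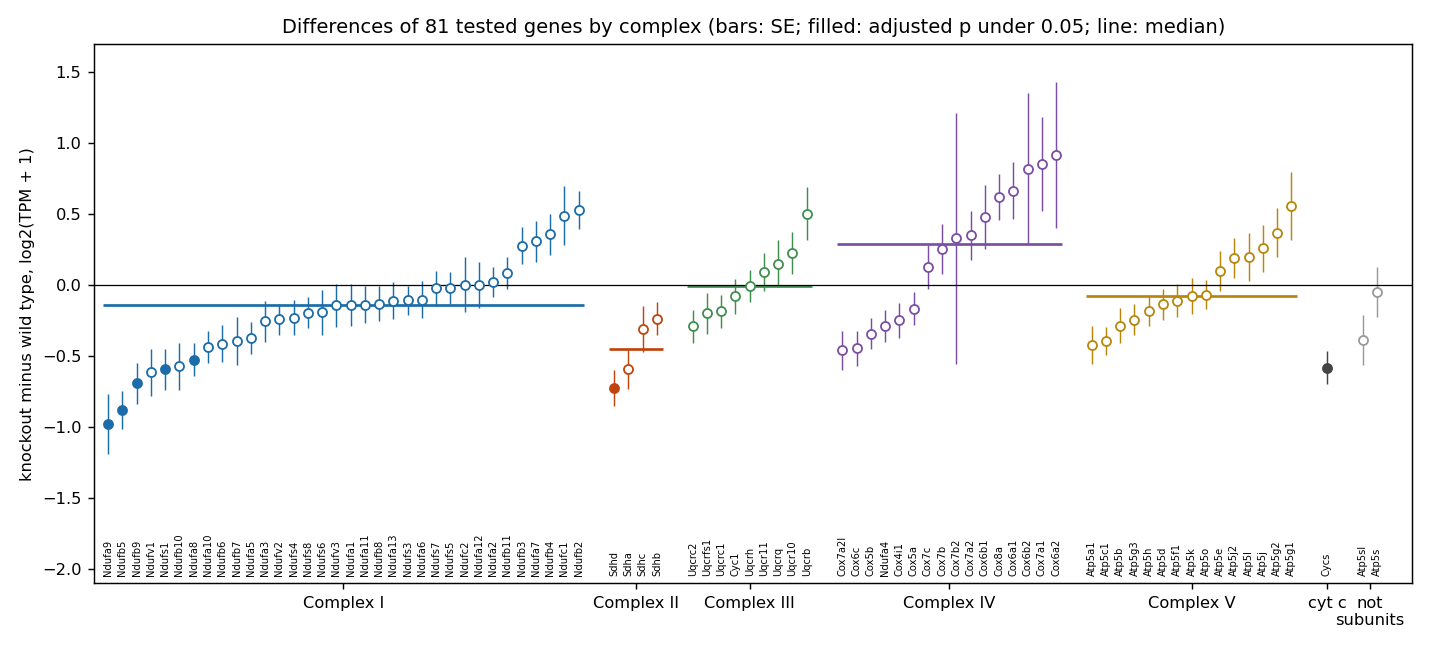
Knockout minus wild-type difference on the log2(TPM + 1) scale for 81 of the tested genes, ordered within complexes, with its SE as a vertical bar, filled symbols for adjusted p under 0.05 and a horizontal line at the median of all tested genes of each complex. All 4 complex II genes lie below 0, and complexes I, III, IV and V each span both sides of it.

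As a share of the members' sum within each library, where the scaling of the library cancels, complexes I and II were lower in every knockout library. Complex I held 21.6%, 23.6% and 23.2% of the members' summed TPM in wild type and 20.5%, 21.1% and 21.5% in knockout, with no overlap by a narrow margin. The summed level of complex I overlapped, at 12200, 12210 and 10740 TPM in wild type and 9875, 11210 and 10920 TPM in knockout. Complex II held 1.94%, 2.57% and 2.44% in wild type and 1.67%, 1.43% and 1.83% in knockout, without overlap. Its summed level was 1185 ± 126 TPM in wild type and 832 ± 90.6 TPM in knockout (SD, n = 3 each). Shares of complexes III, IV and V overlapped between groups. They ran from 8.44% to 9.33%, from 30.5% to 32.9% and from 33.5% to 34.2% in wild type. In knockout they ran from 9.10% to 9.86%, from 32.8% to 34.5% and from 33.0% to 35.2%. A score over members gets no p here, and 3 against 3 libraries could not give an exact p below 0.1.

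**Figure D3:**
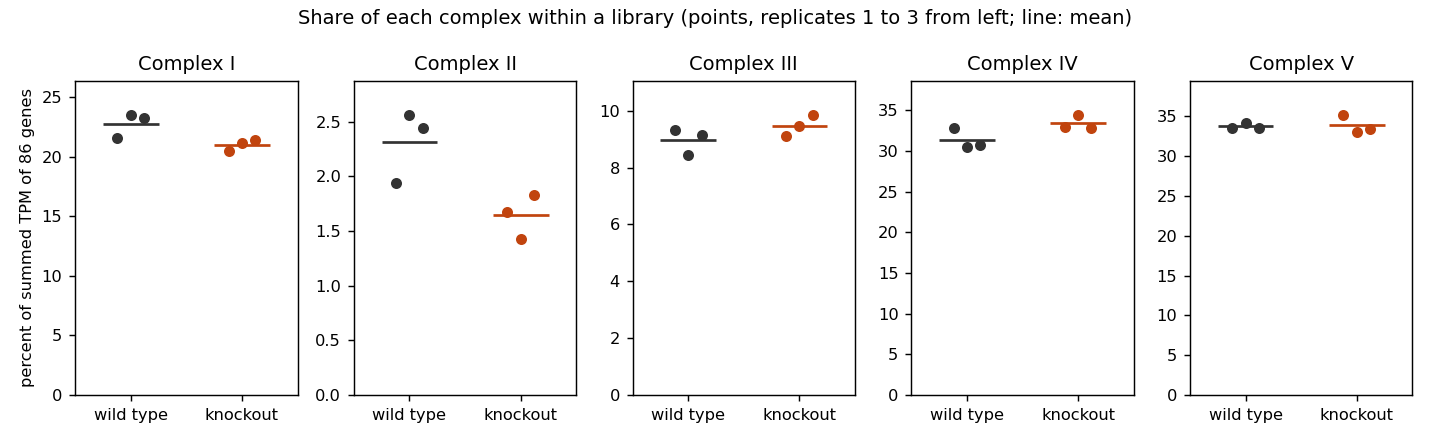
Percent of the summed TPM of the 86 genes held by each complex in each library (points, replicates 1 to 3 from left to right; line: group mean), each vertical axis starting at 0. Complex II lies at 1.94% to 2.57% in wild type and 1.43% to 1.83% in knockout, while complexes III, IV and V overlap.

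Within complex I, all 7 core subunits lay below 0 (median -0.24), and so did 19 of 28 accessory subunits (median -0.14). The summed core level was 1549, 1666 and 1654 TPM in wild type and 1300, 1237 and 1314 TPM in knockout, without overlap. The core's share of the members' sum was 2.741%, 3.212% and 3.577% in wild type. In knockout it was 2.695%, 2.331% and 2.583%, without overlap by a narrow margin. The accessory sum overlapped, at 10650, 10540 and 9090 TPM in wild type and 8575, 9977 and 9603 TPM in knockout. The ratio of core to accessory also overlapped (0.1455, 0.158 and 0.182 in wild type, 0.1516, 0.124 and 0.1369 in knockout). Ndufv1 was at 109, 169 and 137 TPM in wild type and at 89.8, 81.7 and 95.1 TPM in knockout, and was not called (difference -0.61, SE 0.16, adjusted p = 0.0647). Ndufv2, which sits beside Ndufv1, had a difference of -0.24 without overlap (adjusted p = 0.22). Ndufs7 and Ndufs8, which carry iron-sulphur clusters nearer to ubiquinone, had overlapping groups (differences -0.02 and -0.19, adjusted p = 0.934 and 0.334). Accessory subunits ran from the fall of Ndufa9 to Ndufb2, a small membrane-arm subunit at 526, 419 and 395 TPM in wild type and 606, 711 and 607 TPM in knockout. Those groups did not overlap, and the difference of 0.53 (SE 0.13, adjusted p = 0.0567) was not called. Ndufc1 overlapped between groups, at 676, 453 and 421 TPM in wild type and 628, 915 and 622 TPM in knockout (difference 0.49, adjusted p = 0.194).

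The 4 subunits of complex II, which is also succinate dehydrogenase of the Krebs cycle, were lower in mean to different degrees. Sdha, the flavoprotein that oxidises succinate, was at 349, 408 and 362 TPM in wild type and at 258, 202 and 289 TPM in knockout. Its groups did not overlap, and it missed the threshold by little (difference -0.59, SE 0.14, adjusted p = 0.0514). Sdhc, the other membrane anchor, had a difference of -0.31 (adjusted p = 0.29) and Sdhb, the iron-sulphur subunit, of -0.23 (adjusted p = 0.268), with overlapping groups in both.

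Complex III had no call. The core proteins Uqcrc1 and Uqcrc2 had differences of -0.18 and -0.29, and their summed level was 462 to 481 TPM in wild type and 367 to 424 TPM in knockout. Cyc1 and Uqcrfs1, which carry electrons on a haem and an iron-sulphur cluster, had differences of -0.08 and -0.20 (adjusted p = 0.748 and 0.452). Among the 5 small subunits, Uqcrb, at 278, 167 and 171 TPM in wild type and 269, 297 and 284 TPM in knockout, had the largest difference (0.50, SE 0.19, adjusted p = 0.144). Wild-type replicate 1 lay among the knockout values and the other wild-type libraries below them. Uqcrh, the most abundant complex III transcript, was at 1170 ± 117 and 1164 ± 62.2 TPM (SD, n = 3 each), and its direction changed with the scaling (-0.004, and 0.0725 after median-of-ratios rescaling).

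Complex IV genes lay on both sides of 0. Cox6c, Cox7a2l and Cox5b had differences of -0.45, -0.46 and -0.34 without overlap between groups (adjusted p = 0.0757, 0.0873 and 0.102). Cox7a2l is named for its likeness to Cox7a2 and was counted with complex IV by that name. It was at 530, 542 and 466 TPM in wild type and at 345, 331 and 450 TPM in knockout, with knockout replicate 3 just below the lowest wild-type library. Ndufa4 was at 2157 ± 204 and 1764 ± 117 TPM without overlap (difference -0.29, adjusted p = 0.173), and Cox4i1 at 2012 ± 210 and 1694 ± 153 TPM (difference -0.25, adjusted p = 0.265). Cox7c, the most abundant, was at 2424 ± 478 and 2631 ± 286 TPM (difference 0.13, adjusted p = 0.65).

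Other complex IV genes had higher knockout means. Cox8a was at 1110, 856 and 758 TPM in wild type and at 1274, 1628 and 1269 TPM in knockout, and the groups did not overlap (difference 0.62, SE 0.16, adjusted p = 0.0621). Cox6a1 was at 1943, 1284 and 1174 TPM in wild type and at 2208, 2735 and 1936 TPM in knockout. Its wild-type replicate 1 exceeded knockout replicate 3 by a small margin (difference 0.67, SE 0.20, adjusted p = 0.09). Cox6b1 overlapped in the same way, at 1757, 1100 and 933 TPM and at 1534, 2074 and 1540 TPM (difference 0.48, adjusted p = 0.237). Cox7a2 and Cox7b had differences of 0.35 and 0.26 (adjusted p = 0.25 and 0.411). Without wild-type replicate 1, limma called 8 members higher: Atp5g1, Atp5g2, Cox6a1, Cox6b1, Cox8a, Ndufb2, Ndufb4 and Uqcrb; in that fit 2.39% of all rows were called higher.

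Paralogues of complex IV subunits that serve muscle, hypoxia or testis were at 0 or at low levels in both groups. Cox8b, Cox8c and Ndufa4l2 were listed at 0 in all 6 libraries. Cox4i2 was listed at 0 in all but knockout replicate 1 (0.32 TPM), so these 4 were not tested. The heart and muscle isoform Cox7a1 was at 5.34, 4.78 and 2.22 TPM in wild type and at 7.45, 10.7 and 6.02 TPM in knockout, beside group means of 724 and 905 TPM for its paralogue Cox7a2. The groups did not overlap, and the difference of 0.85 (SE 0.33, adjusted p = 0.162) was not called. Cox6a2, the muscle isoform of Cox6a1, was at 0.31, 2.48 and 0 TPM in wild type and at 2.11, 1.40 and 3.13 TPM in knockout (adjusted p = 0.316). Cox6b2 and Cox7b2 stayed below 8 TPM in every library (adjusted p = 0.387 and 0.855). The 5 skeletal muscle markers summed to 1.52 to 6.38 TPM in wild type and to 3.29 to 4.56 TPM in knockout, with Tnnt3 listed at 0 throughout, and their part in these values was not tested.

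In complex V, the F1 head, which makes ATP, and the c ring, which turns with the proton flow, had median differences of -0.28 over 5 genes and 0.37 over 3. The summed head level was 6714, 7587 and 6646 TPM in wild type and 5727, 5582 and 6271 TPM in knockout, with no overlap. Its share of the members' sum overlapped, at 11.88%, 14.63% and 14.38% in wild type and 11.87%, 10.52% and 12.32% in knockout. Atp5b was at 3567, 4169 and 3616 TPM and at 3079, 2826 and 3418 TPM, every knockout library being lower (difference -0.28, SE 0.12, adjusted p = 0.203). Atp5a1, the alpha subunit, had a difference of -0.42 (SE 0.14, adjusted p = 0.105) and Atp5c1, the central gamma shaft, of -0.39 (SE 0.10, adjusted p = 0.0538), both without overlap. Atp5d and Atp5e, which were counted with the head as further F1 subunits, had overlapping groups (differences -0.13 and 0.10, limma adjusted p = 0.4996 and 0.717). The c ring sum was 4876, 3630 and 3216 TPM in wild type and 4929, 4910 and 3992 TPM in knockout, so wild-type replicate 1 lay among the knockout libraries. The ratio of head to ring was 1.38, 2.09 and 2.07 in wild type and 1.16, 1.14 and 1.57 in knockout, which overlapped through that library.

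The mature c subunit is known to be the same protein from all of Atp5g1, Atp5g2 and Atp5g3, which differ in the targeting sequence that is cut off. Atp5g1 was at 2890, 1709 and 1507 TPM in wild type and at 3163, 3285 and 2291 TPM in knockout (difference 0.56, SE 0.24, adjusted p = 0.201). Atp5g3 was at 1644, 1701 and 1478 TPM in wild type and at 1442, 1246 and 1390 TPM in knockout, without overlap (difference -0.24, SE 0.11, adjusted p = 0.224). Atp5g3 thus made up 33.7%, 46.9% and 45.9% of the c subunit transcripts in wild type and 29.3%, 25.4% and 34.8% in knockout, and those shares overlapped. The stator and the other membrane subunits had medians of -0.09 and 0.19. Outside the assembled enzyme, Atp5s was at 52.5 ± 9.86 and 50.5 ± 7.45 TPM and Atp5sl at 21.7 ± 1.47 and 16.4 ± 2.54 TPM (SD, n = 3 each; adjusted p = 0.903 and 0.218).

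Members with longer coding sequences tended to have lower knockout values. Coding lengths came from GENCODE vM21 (GRCm38), which matched all 86 names. Across the 76 subunit genes with a mean of at least 50 TPM, Pearson's r between the difference and log2 coding length was -0.54 and Spearman's rho -0.56, as a description across genes that share the 6 libraries. All 15 genes of at least 800 coding nucleotides lay below 0 (median -0.39, 3 called lower). The 26 genes from 400 to below 800 nucleotides had a median of -0.17 (22 below 0, 4 called lower), and the 35 shorter ones 0.10 (14 below 0, 1 called lower). These bounds were chosen after the values were seen. Other rows of at least 50 TPM showed the same order with smaller steps: medians of 0.19 for 301 short, -0.01 for 751 middle and -0.10 for 2040 long coding sequences. Of these other rows, 5 short, 43 middle and 112 long ones were called lower, and 21, 35 and 80 higher. Over all 3169 rows of at least 50 TPM with a coding length, members included, r was -0.16.

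The relation to length also appeared between libraries of 1 group. Relative to each gene's mean over the 6 libraries, the short members had a median of 0.17 in wild-type replicate 1, -0.05 in replicate 2 and -0.21 in replicate 3. In the knockout libraries it was -0.09, 0.19 and 0.06. The long members stood at 0.11, 0.29 and 0.17 in wild type and at -0.17, -0.31 and -0.10 in knockout, so that of the 3 length classes of members the long one separated the groups and the others overlapped. Long sequences outside the family were at -0.0146, 0.0651 and 0.0829 in wild type and at -0.0219, -0.1045 and -0.0159 in knockout. Those groups also did not overlap, by a narrow margin. Short sequences outside the family were at 0.03, -0.12 and -0.18 in wild type and at -0.00, 0.17 and 0.09 in knockout, which moved in the same order within wild type. The part of this library difference in the members' values was not tested.

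**Figure D4:**
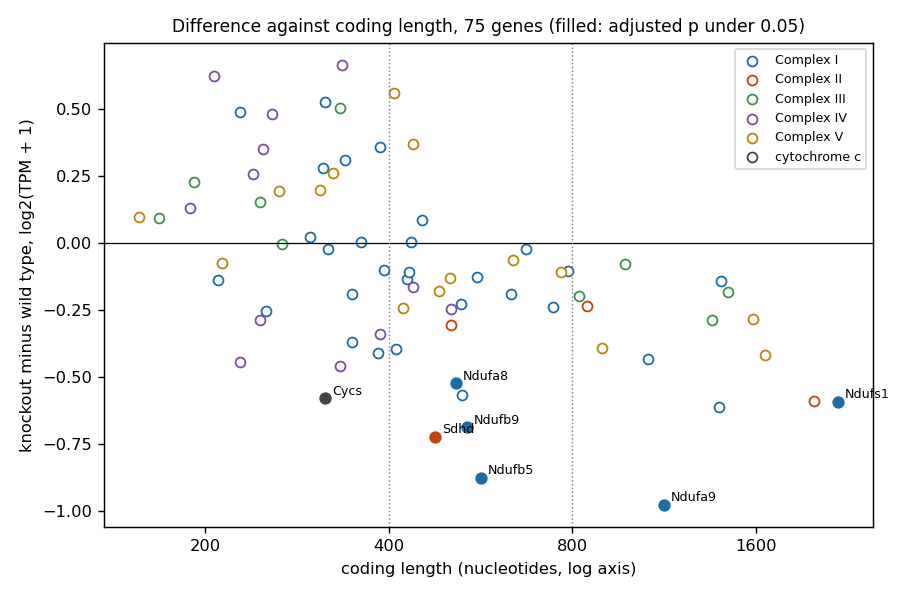
Knockout minus wild-type difference on the log2(TPM + 1) scale against coding length (log axis, nucleotides) for 75 subunit genes with a mean of at least 50 TPM, coloured by complex; filled symbols passed an adjusted p of 0.05 and dotted lines mark 400 and 800 nucleotides. Every gene shown at or right of 800 lies below 0, and genes left of 400 lie on both sides.

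**Figure D5:**
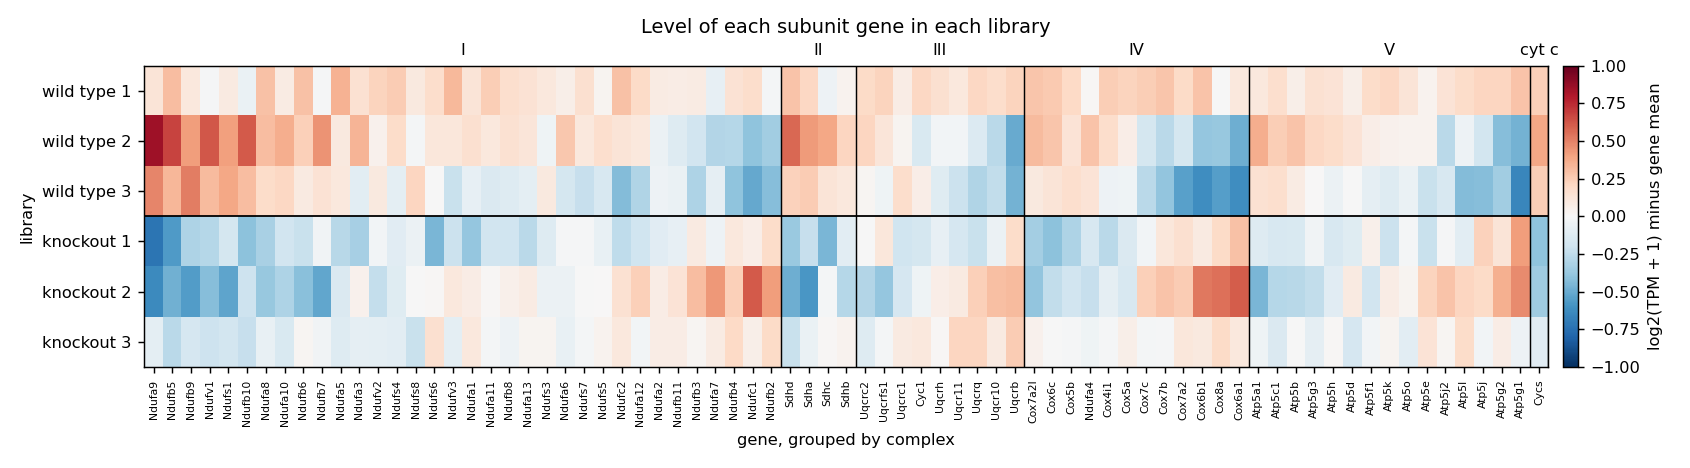
Level of each of 75 of these genes in each library as log2(TPM + 1) minus the gene's mean over the 6 libraries, grouped by complex and ordered by difference; red is above and blue below the mean. Wild-type replicate 1 is above the mean for most genes, while wild-type replicates 2 and 3 are high for the genes that fell and low for Atp5g1, Cox6a1, Cox8a and Uqcrb.

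Among genes that build, feed or accompany the chain, every call was of a lower level. The share of all rows called lower was 3.17%. Of 41 assembly factors tested, 3 fell and 38 were not called (median -0.14). Ndufaf2, which helps to assemble complex I, fell from 237, 244 and 204 TPM in wild type to 117, 153 and 137 TPM in knockout (difference -0.75, SE 0.13, adjusted p = 0.0162), and Ndufaf1 and Tmem70, assembly factors of complexes I and V, were the others. Of 18 genes of the Krebs cycle and pyruvate entry, 2 fell, 16 were not called and 17 lay below 0 (median -0.28). They were Ogdh, the E1 subunit of oxoglutarate dehydrogenase (180 ± 22.9 to 116 ± 15.1 TPM, adjusted p = 0.0408), and Pdha1, the E1 alpha subunit of pyruvate dehydrogenase (257 ± 16.5 to 169 ± 29.3 TPM, adjusted p = 0.0442).

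Of 24 carriers, channels and import genes, 2 fell (median -0.27): Phb2, which encodes prohibitin 2 of the inner membrane (82.9 ± 5.36 to 49.8 ± 5.17 TPM, adjusted p = 0.0167), and Hspa9, the matrix chaperone mortalin (adjusted p = 0.0372). Of 8 genes for upkeep and expression of mitochondrial DNA, 1 fell (median -0.30), Tufm, a mitochondrial elongation factor (47.4, 78.4 and 71.6 TPM in wild type, 27.7, 37.9 and 36.4 TPM in knockout, adjusted p = 0.0417). Tfam, which packages mitochondrial DNA, was at 15.8, 20.5 and 18.2 TPM in wild type and at 11.1, 9.43 and 13.9 TPM in knockout (adjusted p = 0.102). In none of these 4 lists was a gene called higher by limma, and 1 gene in all, an assembly factor, was higher at an unadjusted p below 0.05. Leaving out any 1 of the 6 libraries ended both Krebs cycle calls. The calls of Ndufaf2, Phb2 and Tufm were each lost without wild-type replicate 2, wild-type replicate 3 or knockout replicate 1, that of Phb2 also without knockout replicate 2, and that of Tufm also without knockout replicate 2 or 3. Subunits and regulators outside the name rule (Ndufab1, Atpif1, Usmg5 and 2010107E04Rik) gave 0 calls, with 1 higher at an unadjusted p below 0.05. Ndufab1, the acyl carrier subunit of complex I, was at 563 ± 78.2 and 546 ± 67.6 TPM.

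Among 10 regulators known to act on respiratory chain genes, 2 fell (median -0.33), beside 3.17% of all tested rows called lower. Esrrg, an estrogen-related receptor, was at 174, 138 and 148 TPM in wild type and at 74.8, 52.6 and 56.0 TPM in knockout (difference -1.32, SE 0.16, adjusted p = 0.00403). Esrrb was at 9.61, 12.2 and 9.87 TPM and at 1.89, 1.55 and 3.72 TPM (difference -1.82, SE 0.30, adjusted p = 0.013), a call lost without wild-type replicate 2, wild-type replicate 3 or knockout replicate 1. Their relative Esrra was at 14.2 ± 2.58 and 11.5 ± 1.81 TPM (adjusted p = 0.448) and the coactivator Ppargc1a at 86.6 ± 9.91 and 76.2 ± 11.6 TPM (adjusted p = 0.486), with overlapping groups. Nrf1 was at 5.63, 8.59 and 6.81 TPM and at 3.38, 3.50 and 7.75 TPM (adjusted p = 0.381), and Gabpa at 30.7 ± 5.56 and 23.6 ± 6.38 TPM (adjusted p = 0.341).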

How the data were processed

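RNA of parvalbumin-positive neurons was extracted with the PicoPure kit and turned into amplified cDNA with an Ovation kit, per the labels' protocols. Amplification from small inputs adds noise. Per the submitters' processing notes, reads were handled by RSEM 1.2.7 and by Bowtie2 and cutadapt, and the build was mm10. The gene annotation behind the values was not given in the sources used here. TPM values, 1 column per library, were what the authors deposited, with replicates not pooled. The depth is unknown, so no interval that needs it was computed. How reads were divided among near-identical gene copies was not examined. A gene listed at 0 can be a failed estimate.

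Of 31469 rows, the 13787 whose mean reached 1 TPM were fitted together on the log2(TPM + 1) scale. The tool was limma 3.58.1 under R 4.3.3, genotype was the only term and the prior variance followed an intensity trend. Tests were two-sided and adjusted by Benjamini and Hochberg over all tested rows at 0.05. On this scale the change of a low gene is understated. The fit was tested on simulated data. Other pseudocounts, filters, scalings, weights, a replicate block and left-out libraries were run as alternatives. Figures and counts used Python 3.11.15. The named genes were every called member, the highest-mean, highest and lowest member of each complex, Cycs, Cyc1, paralogue pairs, the 3 highest means and a fixed set of companions. Other genes named were chosen after their values were seen. Of the called genes, 1 enters all counts but is not reported here. Members, lists and tests were chosen with earlier results of these data known.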

Additional observations from a re-analysis of the deposited data

How the results depend on the processing

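The 8 genes called lower kept their direction under all 17 alternatives. As their groups did not overlap, only another scaling of the libraries could have changed it. The count of calls did not hold. It was 3 without a filter on low values (1.27% of all rows), 14 with quantile normalization (3.34%) and 0 with limma lacking the intensity trend (19 at an unadjusted p below 0.05; 1.22%). With replicate 3 of both groups left out it was 0 (20 at an unadjusted p below 0.05; 0.101%), and the median of complex I was then -0.27. Leaving out each library in turn gave 0 to 10 members called lower (0.66% to 3.34% of all rows) and 0 to 8 called higher (0.239% to 2.39%), the 8 without wild-type replicate 1. Counts called higher were 2 with a filter at a mean of 5 TPM (3.18%) and 2 with quantile normalization (2.82%), Cox8a and Ndufb2 in both. With the replicate block 5 were called lower (2.47%), Ndufs1, Ndufa8 and Cycs being lost; the labels do not say that a number marks a shared animal. Deviations of same-numbered libraries correlated at 0.05, 0.07 and 0.04, and wild-type replicate 3 correlated best with knockout replicate 1 (0.07). Genes near 0 changed sign: Uqcrh to 0.0725 after median-of-ratios rescaling and to between -0.0656 and 0.0735 over left-out libraries, Ndufab1 to 0.0351 after that rescaling and to between -0.138 and 0.0692, Cyc1 to between -0.174 and 0.0047, and Cox7b2 to between -0.466 and 1.29. After that rescaling the medians of complexes I, III and V were -0.0647, 0.0725 and 0.0007. The causes were not tested. The depth of the libraries is unknown, which limits what low genes such as Cox6a2 can show.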
